A study of Mus musculus with 503 samples.

Results

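The smooth muscle contractile genes described here are the 10 rows of the count table with the symbols *Myh11*, *Acta2*, *Tagln*, *Mylk*, *Cnn1*, *Des*, *Pln*, *Casq2*, *Lmod1* and *Actg2*, of 56701 gene rows in all. They were chosen by symbol and followed across 4 groups of perivascular cells of the mouse spinal cord, profiled cell by cell with the Smart-seq3 protocol. The animals were adult GLAST-CreERT2;R26R-tdTomato;Pdgfrb-eGFP mice, female by their labels although the study also describes both sexes for sequencing, in which tamoxifen switches on tdTomato in cells that use the GLAST promoter and EGFP marks cells with Pdgfrb promoter activity. Sorted tdTomato+EGFP+ cells and tdTomato-EGFP+ cells came either from uninjured cord or from the lesion segment after a spinal crush, labelled 3d_SCI. The per-cell labels give 3 days after injury, while the design text of the series gives another interval, and the labels were followed. After filtering, 468 cells remained. Uninjured cord gave 65 and 72 tdTomato+EGFP+ cells on plates 209 and 213, and 46 and 60 of the tdTomato-EGFP+ sort. Injured cord gave 88 and 34 tdTomato+EGFP+ cells on plates 211 and 215, and 58 and 45 of the other sort. Below, the sorts are called tdTomato+ and tdTomato-, and both are EGFP+. The tdTomato+ sort holds the recombined cells only, so a GLAST-expressing cell that escaped recombination lies in the tdTomato- sort.

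Vascular smooth muscle cells (vSMCs) contract when calcium-activated myosin light chain kinase, the product of *Mylk*, phosphorylates the light chains of smooth muscle myosin, whose heavy chain is encoded by *Myh11*. The myosin pulls on thin filaments of smooth muscle actins (*Acta2*, *Actg2*) that carry calponin (*Cnn1*) and transgelin (*Tagln*), with leiomodin (*Lmod1*) as an actin nucleator and desmin (*Des*) as the intermediate filament. Phospholamban (*Pln*) restrains the calcium pump of the sarcoplasmic reticulum and calsequestrin (*Casq2*) stores calcium inside it. *Acta2* and *Tagln* are also made by myofibroblasts, whereas *Myh11* and *Cnn1* are used as signs of mature smooth muscle, and this is why the pairs were read separately after injury. Many genes of this kind are driven by serum response factor through the CArG box.

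Promoter windows from 250 bases before to 50 bases after the gene's start were found in RefSeq (GRCm38.p6) for 7 of the 10 genes, and *Myh11*, *Tagln* and *Actg2* were not matched. The submitters' processing notes name mm10. *Acta2*, at chr19:34255324-34255623 on the minus strand, and *Cnn1*, at chr9:22099003-22099302 on the plus strand, are shown because 1 gene of each pair could be matched. Capitals mark runs of 10 bases that start with CC, end with GG and hold A or T at no fewer than 5 of the 6 inner places, a relaxed CArG box that reads the same way on both strands.
Acta2: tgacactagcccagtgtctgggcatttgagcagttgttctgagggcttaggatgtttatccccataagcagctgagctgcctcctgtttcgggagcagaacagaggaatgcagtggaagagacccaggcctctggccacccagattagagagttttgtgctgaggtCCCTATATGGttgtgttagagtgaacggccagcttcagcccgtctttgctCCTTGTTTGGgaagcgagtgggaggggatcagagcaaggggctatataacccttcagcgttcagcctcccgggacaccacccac
Cnn1: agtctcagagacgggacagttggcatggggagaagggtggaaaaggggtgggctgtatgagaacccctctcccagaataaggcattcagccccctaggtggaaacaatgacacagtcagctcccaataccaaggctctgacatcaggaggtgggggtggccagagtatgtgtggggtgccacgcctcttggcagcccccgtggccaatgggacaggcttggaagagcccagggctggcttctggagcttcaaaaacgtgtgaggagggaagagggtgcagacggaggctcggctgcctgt
The *Acta2* window held 2 such runs, CCCTATATGG at 84 to 75 bases and CCTTGTTTGG at 34 to 25 bases before the start, and none was found in the windows of *Cnn1*, *Mylk*, *Des*, *Pln*, *Casq2* or *Lmod1*. Of 32851 mouse promoter windows of the same length, 9.98% held a relaxed box and 1.63% a strict one with 6 A or T. The matches describe letters in a window and not factor binding.

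Each group held between 25645409 and 38406035 counts in its kept cells, so that counting error was small for all but the rarest genes. Uninjured cells lay on plates 209 and 213 and injured cells on plates 211 and 215, each with both sorts, so injury and plate cannot be told apart. No label names an animal, each group was treated as 1 sample, and no test was run. Levels are counts per 1000000 (CPM) of summed group counts, differences are log2(CPM + 1), and the spread is that of the plates (sort comparisons) or of the 4 pairs of an injured with an uninjured plate (injury comparisons). A gene is called changed where the difference is 1 or more in size, the higher group reaches 10 CPM and every plate or pair has the same direction. Injured tdTomato+ cells of plate 215 were shallow, with a median of 14770 counts per cell, and plate 211 supplied 94.6% of the counts of that group. In sums over cells, fewer cells of a type and less RNA per cell cannot be told apart.

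In uninjured cord, contractile genes were higher in the tdTomato- than in the tdTomato+ sort. *Myh11* was at 168 CPM in tdTomato+ cells (159.6 on plate 209 and 173.6 on plate 213) and at 791 CPM in tdTomato- cells (677.5 and 844.8), a difference of -2.23 on the log2 scale, tdTomato+ minus tdTomato-. *Acta2* was at 279 CPM (281.6 and 277.7) and 852 CPM (1045 and 760.5), and *Tagln* at 79.2 CPM (58.9 and 93.8) and 320.0 CPM (389.3 and 287.3). All 3 were called lower in tdTomato+ cells. *Pln*, the phospholamban gene, was at 17.7 CPM (20.1 and 15.9) against 166.5 CPM (168.2 and 165.6), and *Lmod1* at 24.2 CPM (18.4 and 28.5) against 125.9 CPM (108.3 and 134.3). *Mylk* was at 384 CPM (383.2 and 384.3) against 788 CPM (787.5 and 787.8), the closest agreement of plates among the members. Of the 9 members that reached 10 CPM, 7 were lower in tdTomato+ cells and none was higher, where 3.61% of the 11198 genes tested were lower and 4.31% were higher.

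The calponin gene *Cnn1* stood apart, because its tdTomato+ value rested on 1 cell. It was at 74.9 CPM in tdTomato- cells (47.1 on plate 209 and 88 on plate 213) and 5.88 CPM in tdTomato+ cells, where 1 cell held 99.1% of 226 counts and plate 213 held 1 count in all. Its difference ranged from -6.41 to -1.68 on the plates. *Casq2* was at 524 CPM (613.0 and 460.2) against 746 CPM (748.5 and 745.5) and *Des* at 79.6 CPM (84.3 and 76.2) against 105.1 CPM (95.2 and 109.8). These are differences of -0.51 and -0.40, in both cases too small for a call. *Actg2*, the enteric-type smooth muscle actin gene, was at 0.312 and 3.94 CPM and was not tested. Over the 10 genes the median difference was -1.96, beside 0.01 over all genes tested.

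**Figure D1:**
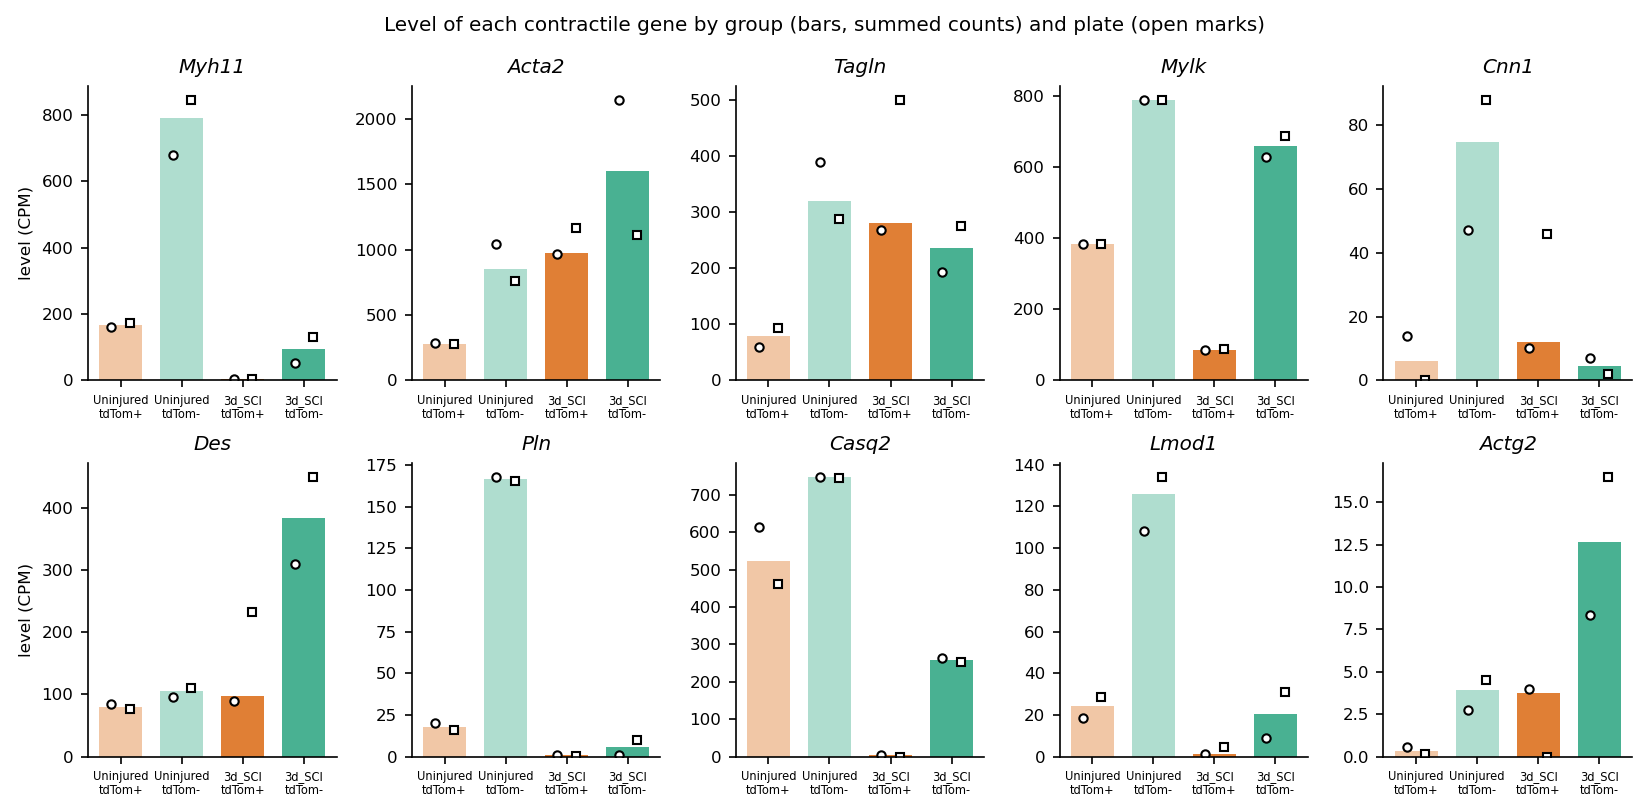
Level of each contractile gene in CPM (vertical axis, linear and from 0, with its own scale for each gene) in the 4 groups, where bars are summed counts of a group and open marks its 2 plates (circles 209 or 211, squares 213 or 215). *Myh11*, *Pln* and *Lmod1* are lower in both injured groups than in both uninjured groups, while *Acta2* stands at 977 and 1603 CPM after injury against 279 and 852 CPM before.

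Single cells showed that most of these counts came from few cells. Cells were clustered without the 10 genes and without other genes of contraction and its regulation, which gave 6 clusters. Cluster 6 held 18 cells, in which 7 of 8 vSMC markers that are no contractile genes were raised, among them *Nrip2*, *Susd5* and *Olfr558*, and it is called vSMC-like. It held 14 uninjured tdTomato- cells, 3 uninjured tdTomato+ cells, 1 injured tdTomato- cell and no injured tdTomato+ cell. By plate these were 7 cells of plate 209, 10 of plate 213, 1 of plate 215 and none of plate 211.

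All 18 vSMC-like cells had counts of *Myh11*, *Acta2*, *Tagln*, *Mylk* and *Lmod1*, but only 38.9% had a count of *Cnn1*. In the 14 uninjured tdTomato- cells of the cluster *Acta2* was at 6211 CPM, *Myh11* at 5344 CPM, *Mylk* at 3118 CPM, *Tagln* at 2536 CPM, *Pln* at 1347 CPM, *Lmod1* at 927 CPM and *Cnn1* at 589 CPM. They held 97.3% of the *Pln* counts of their group, 95.3% of *Tagln*, 94.5% of *Cnn1*, 88.5% of *Lmod1*, 87.7% of *Acta2* and 81.2% of *Myh11*. The same cells held 47.6% of *Mylk*, 27.7% of *Des*, 4.7% of *Casq2* and no count of *Actg2*. *Casq2* was at 938 CPM in cluster 3 and 628 CPM in cluster 2, above its 539 CPM in the vSMC-like cluster. In both of these clusters 8 of 9 pericyte markers were raised together with most endothelial markers, and they are called by number because genes such as *Gkn3* and *Bmx* led cluster 3 and *Slc38a5* led cluster 2.

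The 18 vSMC-like cells were left out next, as the cluster with the highest *Myh11* level, in a comparison chosen after the values were seen. Because the cluster was picked by a member's own level, leaving it out lowers the group that holds most of it. The sort difference of uninjured cord was then no longer called lower for any of the 7 genes. *Tagln* was then called higher in tdTomato+ cells, by 1.11 (0.06 and 1.91 on the plates), and *Acta2* was at 178 CPM there with a difference of 0.57 (0.05 and 0.93). *Myh11* was at -0.87 (-1.12 and -0.75), *Mylk* at -0.44 and *Pln* at 0.02. *Cnn1* was still at -2.42 (-2.82 and -0.86) and lost its call because its higher level, 4.65 CPM, was under 10 CPM, and *Lmod1* was at -0.94 (-2.09 and 0.19).

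Injury was examined next within the tdTomato+ sort, which labels GLAST-lineage cells. *Acta2* rose from 279 CPM (281.6 and 277.7 on the plates) to 977 CPM (966.1 on plate 211 and 1168 on plate 215), by 1.80 (1.77 to 2.07 over the plate pairs). *Tagln* rose from 79.2 CPM (58.9 and 93.8) to 282 CPM (269.2 and 500.8), by 1.82 (1.51 to 3.07). Both were called higher, as were 10.8% of the genes tested. For *Acta2*, 1 shallow uninjured cell of plate 209 had 1212 *Acta2* counts among 4170 in all. When CPM was averaged over cells, that cell set the uninjured mean to 2362 CPM and the *Acta2* difference turned to -1.25. Without that cell the uninjured mean was 242.4 CPM, below the injured mean of 989.2 CPM, and averaged *Tagln* was at 78.9 and 251.5 CPM. *Myh11* took the opposite course and fell from 168 CPM (159.6 and 173.6) to 3.21 CPM (3.26 and 2.38), by 5.32, and of the 100 counts that remained 1 cell held 50%. *Casq2* fell from 524 CPM (613.0 and 460.2) to 3.69 CPM (3.90 and 0), the largest fall among the members at 6.81.

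*Lmod1* fell from 24.2 to 1.35 CPM, *Pln* from 17.7 to 0.867 CPM and *Mylk* from 384 to 85.6 CPM (85.5 and 86.5 on the plates). All 3 were called lower, as were 34.3% of the genes tested, and the differences were -3.43, -3.32 and -2.15. Before injury the 3 vSMC-like cells of this sort held 67.1% of the *Lmod1* and 71.1% of the *Pln* counts. *Des* was at 79.6 CPM before and 97.9 CPM after injury (90.3 and 231.9), a difference of 0.30 (0.10 to 1.59 over the pairs). The calponin gene did not follow *Myh11*. *Cnn1* was at 5.88 CPM before injury, nearly all in 1 cell, and at 12.1 CPM after (10.2 and 45.9), with plate pairs from -0.42 to 5.49 and no call. Without the vSMC-like cells its level before injury was 0.0534 CPM and the difference was 3.64 (3.40 to 5.49 over the pairs), which met the rule for a call. After injury 1 cell held 33.9% of the *Cnn1* counts, and without it the level was 8.2 CPM, under the minimum for a call.

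Of the 9 tested members 2 rose and 5 fell in the tdTomato+ sort, where 10.8% of 11429 genes rose and 34.3% fell. The median difference of all genes tested was -0.59 here, so a fall of about that size is the general level, and with TMM factors the median gene moved to 0.07. Under those factors *Acta2* was at 2.48, *Tagln* at 2.49 and *Myh11* at -4.74. Markers of other perivascular cells moved with the contractile genes in this sort. The 9 pericyte markers summed to 11100 CPM before injury (10200 and 12360 on the plates) and 729.9 CPM after (281.4 and 755.4), with none at 0. The 8 perivascular fibroblast markers went from 3620 CPM (3114 and 3984) to 19720 CPM (15520 and 19960), again with none at 0. Their part in the fall of *Casq2*, *Mylk* and *Myh11* was not tested.

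In the tdTomato- sort the pattern after injury was different for several members. *Myh11* fell from 791 CPM (677.5 and 844.8) to 93 CPM (51.4 on plate 211 and 130.8 on plate 215), by 3.07 (2.36 to 4.01 over the pairs), and 1 vSMC-like cell held 50.4% of what remained. *Cnn1* fell from 74.9 CPM (47.1 and 88) to 4.37 CPM (6.97 and 2.01), by 3.82. *Pln* fell from 166.5 CPM (168.2 and 165.6) to 5.73 CPM (1.31 and 9.74), with 88.4% of the remaining counts in that same cell. *Lmod1* fell from 125.9 to 20.4 CPM and *Casq2* from 746 to 258 CPM (263.7 and 252.1). The desmin gene *Des* rose from 105.1 CPM (95.2 and 109.8) to 384 CPM (310.5 and 450.4), by 1.86 (1.49 to 2.23), and *Actg2* rose from 3.94 CPM (2.78 and 4.49) to 12.6 CPM (8.36 and 16.5), by 1.46. For *Actg2* 1 cell held 77.4% of the uninjured and 1 cell 35.5% of the injured counts, and without these cells the levels were 0.914 and 8.35 CPM, under the minimum for a call. In this sort the perivascular fibroblast markers summed to 1867 CPM before (1334 and 2993 over the plates) and 8425 CPM after injury (5686 and 11440). Of these 8 markers 6 were called higher, where 9.52% of all genes tested were. The pericyte markers summed to 12230 CPM before and 11320 CPM after injury, and the part of both lists was not tested.

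*Acta2* was at 852 CPM (1045 and 760.5) before and 1603 CPM (2147 and 1109) after injury in this sort, a difference of 0.91 (0.09 to 1.5). *Tagln* was at 320.0 CPM (389.3 and 287.3) before and 237 CPM (194.0 and 276.2) after, a difference of -0.43 that had the same sign in 4 of 4 pairs. Neither met the rule for a call, and neither did *Mylk* at 788 and 659 CPM. Of the 10 members 2 rose and 5 fell, where 9.52% of 11434 genes rose and 17% fell and the median gene was at -0.20. With TMM factors that median moved to 0.07, *Acta2* to 1.20 and *Tagln* to -0.15, and *Mylk* turned from -0.26 to 0.03.

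The vSMC-like cluster held 14 uninjured and 1 injured tdTomato- cell, and was picked for its *Myh11* level. Its 14 uninjured cells held 87.7% of the *Acta2* and 95.3% of the *Tagln* counts of their group. Leaving them out therefore lowers the uninjured side by itself. Without the cluster, *Acta2* was higher after injury in the tdTomato- sort by 3.7 (2.42 to 4.64 over the pairs). *Tagln* was higher by 3.60 (2.58 to 4.41) and so changed sign, and both met the rule for a call. *Myh11* was still lower, by 1.82 (1.51 to 2.29), and still called, and *Casq2* was lower by 1.82. *Cnn1* was then at -0.05 (-1.27 to 2.05) with 4.44 CPM after injury and below the minimum for a call. The tdTomato+ sort kept its directions without these cells, with *Acta2* at 2.45, *Tagln* at 2.85 and *Myh11* at -4.46. *Lmod1* was then at -1.96 and *Pln* at -1.74, but their levels before injury were 8.17 and 5.23 CPM, under the minimum for a call. Whether fewer vSMC-like cells were present in the lesion or fewer were recovered from it cannot be told apart here.

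**Figure D2:**
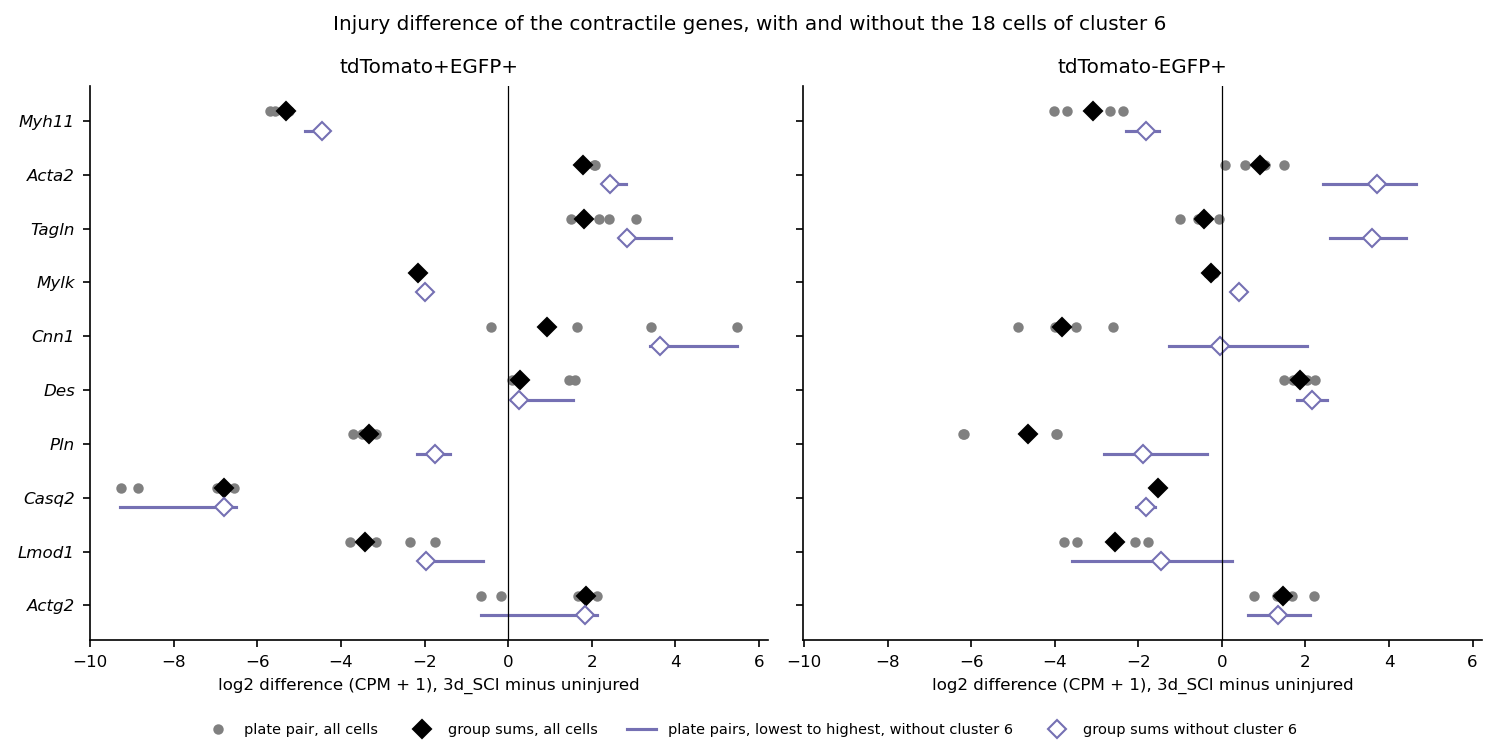
Injury difference of each contractile gene (horizontal axis, log2 of CPM + 1, 3d_SCI minus uninjured) in the 2 sorts. Black diamonds are group sums with grey dots for the 4 plate pairs, and open diamonds with lines give the same without the 18 cells of cluster 6. *Tagln* in the tdTomato- sort moves from -0.43 to 3.60, while *Myh11* stays below 0 in both sorts and both settings.

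The difference between the mean of *Acta2* and *Tagln* and the mean of *Myh11* and *Cnn1* summarised the split. It was 4.01 in the tdTomato+ sort (2.34 to 4.8 over the plate pairs) and 3.69 in the tdTomato- sort (2.98 to 4.21), above 0 in 4 of 4 pairs of each. Its makeup was not the same. In tdTomato+ cells *Acta2* and *Tagln* averaged 1.81 and the other pair -2.20, where only *Myh11* was lower, and in tdTomato- cells the averages were 0.24 and -3.45. Counts of *Acta2* per count of *Myh11* went from 1.67 (1.77 and 1.60 on the plates) to 304 (296.4 and 489.8) in tdTomato+ cells and from 1.08 (1.54 and 0.900) to 17.2 (41.8 and 8.48) in tdTomato- cells. The ratio compares groups and says nothing of which of the genes is the more abundant.

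Between the sorts, *Tagln* moved up with injury in 4 of 4 plate pairs of tdTomato+ cells and down in 4 of 4 of tdTomato- cells, a gap of 2.25 (2.07 to 3.56). The gap for *Acta2* was 0.89 (0.30 to 1.96) and for *Myh11* it was -2.25 (-3.20 to -1.34). *Casq2* had the widest gap, -5.27 (-7.70 to -5.06), and *Cnn1* came next at 4.75 (2.18 to 10.4), where 1 cell held 99.1% of its uninjured tdTomato+ counts. *Mylk*, at -1.89 (-1.94 to -1.82), had the narrowest range. For *Lmod1* the value of -0.86 lay outside its own plate pairs (-0.27 to 0.30), and it shows no difference beyond their spread. These gaps were not tested.

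To see whether the pairs parted within single cells, cells with 20000 or more counts were thinned to 20000 counts, which left out 10 uninjured tdTomato+, 14 uninjured tdTomato-, 22 injured tdTomato+ and 1 injured tdTomato- cell. No uninjured cell had counts of both *Acta2* and *Tagln* without *Myh11* or *Cnn1* in either sort, which allows shares of up to 2.36% and 3.26% when 3 cells are taken as the limit of a count of 0, or 2.86% and 3.93% by the exact binomial interval. After injury 36 of 100 tdTomato+ cells (exact binomial interval 26.6 to 46.2%) and 25 tdTomato- cells (24.5%, 16.5 to 34%) had this pattern. It was seen on each injured plate, in 36.8% and 30.8% of tdTomato+ cells and in 20.7% and 29.5% of tdTomato- cells on plates 211 and 215. Intervals cover counting error only, and cells of a group share their animals.

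Cells with *Acta2* and *Tagln* together with *Myh11* or *Cnn1* numbered 14 (11.02%) and 17 (18.5%) in the tdTomato+ and tdTomato- sorts before injury and 11 (11%) and 18 (17.6%) after. These counts did not come from the same clusters. The 17 uninjured tdTomato- cells were 14 of cluster 6 and 3 of cluster 3, and the 18 injured ones were 8 of cluster 5, 4 of cluster 3, 3 of cluster 1, 2 of cluster 4 and 1 of cluster 6. In the tdTomato+ sort they were 10 of cluster 3, 3 of cluster 6 and 1 of cluster 4 before injury, and 10 of cluster 1 and 1 of cluster 4 after. The cells with *Acta2* and *Tagln* and without *Myh11* or *Cnn1* were then read for other genes. Of these 36 injured tdTomato+ cells 35 had counts of *Col1a1*, the collagen gene of fibroblasts, and 28 had *Pdgfra*. The pericyte gene *Kcnj8* was counted in 6 of them and the cycling gene *Mki67* in 18. Of the 25 tdTomato- cells of this pattern 11 had *Col1a1*, 8 had *Pdgfra*, 17 had *Kcnj8* and 8 had *Mki67*. Among all injured tdTomato+ cells 95 of 100 had *Col1a1*, so its share in the 36 is near that of their group. For *Pdgfra*, *Kcnj8* and *Mki67*, and for *Col1a1* in tdTomato- cells, no group share is set beside these counts. They therefore do not show that cells of this pattern differ from the rest of their group.

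**Figure D3:**
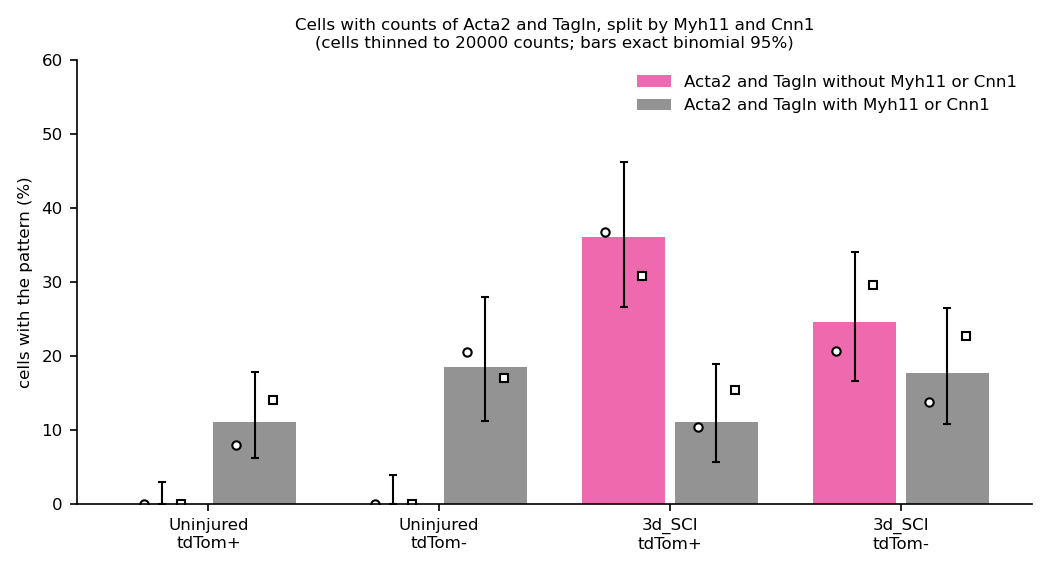
Percent of cells (vertical axis, from 0) with counts of *Acta2* and *Tagln* without *Myh11* or *Cnn1* (pink) or with either of them (grey) after thinning each cell to 20000 counts, by group, with exact binomial 95% bars for counting error and open marks for the plates. The pink bars stand at 0 in both uninjured groups and at 36 and 24.5% after injury.

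Read as single genes at equal depth, *Acta2*, *Tagln* and *Myh11* gave the same picture, but *Cnn1* did not in tdTomato+ cells. *Acta2* was counted in 14.2% of uninjured and 57% of injured tdTomato+ cells and in 28.3% and 67.6% of tdTomato- cells, and *Tagln* in 15.0% and 57% and in 21.7% and 46.1%. *Myh11* was counted in 35.4% and 5.0% of tdTomato+ cells and in 47.8% and 24.5% of tdTomato- cells. The share of tdTomato- cells with *Tagln* was thus higher after injury while its summed level was not. *Cnn1* was rare throughout, in 0.787% of uninjured and 9.0% of injured tdTomato+ cells and in 7.61% and 4.90% of tdTomato- cells. Its share was thus higher after injury in tdTomato+ cells. In tdTomato- cells it was lower after thinning but higher unthinned. *Casq2* was counted in 66.1% of uninjured and 2.0% of injured tdTomato+ cells, against 75% and 55.9% of tdTomato- cells. Unthinned, *Cnn1* was counted in 2.19% and 18.03% of tdTomato+ and in 10.4% and 17.5% of tdTomato- cells, *Acta2* in 25.5%, 68.9%, 54.7% and 84.5%, and *Myh11* in 45.99%, 13.1%, 60.4% and 43.7%, each in the order uninjured and injured tdTomato+, then uninjured and injured tdTomato-.

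Counting cells at 100 CPM or more, a level chosen after the values were seen, gave 12.6% and 45% of tdTomato+ cells for *Acta2* and 22.8% and 62.7% of tdTomato- cells. At this level *Acta2* and *Tagln* without *Myh11* or *Cnn1* were found in 0.787% and 30% of tdTomato+ cells and in 0% and 28.4% of tdTomato- cells, before and after injury. With *Myh11* or *Cnn1* they were found in 8.66% (exact binomial interval 4.40 to 15.0%) and 5% (1.64 to 11.3%) of tdTomato+ cells and in 18.5% (11.2 to 27.9%) and 7.84% (3.45 to 14.9%) of tdTomato- cells. For *Myh11* the shares at 100 CPM were 22.05% and 1%, and 39.1% and 14.7%. *Lmod1* went from 5.51% to 0% of tdTomato+ cells and from 19.6% to 4.90% of tdTomato- cells.

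**Figure D4:**
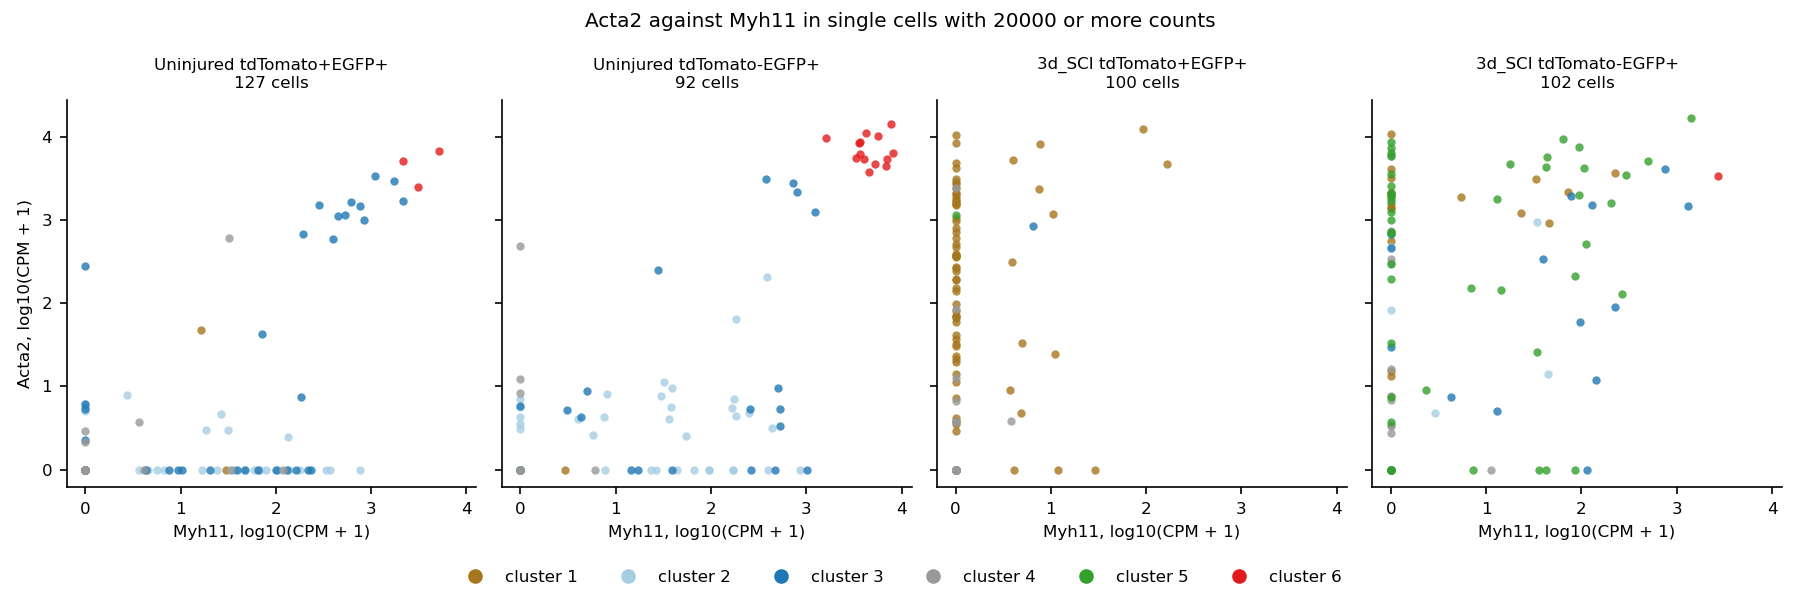
*Acta2* against *Myh11* in each cell with 20000 or more counts (both axes log10 of CPM + 1), 1 panel per group and coloured by cluster. Before injury most cells high in *Acta2* were also high in *Myh11*, apart from single cells at or near 0 for *Myh11*, with the 14 vSMC-like cells (red) of the tdTomato- sort at the top right, and after injury many cells high in *Acta2* lie at or near 0 for *Myh11*.

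The clusters placed the injured cells with *Acta2* and *Tagln* and without *Myh11* or *Cnn1* after thinning. Of the 36 tdTomato+ cells 35 lay in cluster 1, which held 99 injured tdTomato+ cells, had 5 of 8 perivascular fibroblast markers and 6 of 6 cycling markers raised, and is called by number because cycling genes were among its leading genes. Its injured tdTomato+ cells had *Acta2* at 1124 CPM, *Tagln* at 319 CPM, *Cnn1* at 14.5 CPM and *Myh11* at 3.79 CPM. Of the 25 tdTomato- cells 12 lay in cluster 5 and 9 in cluster 1. Cluster 5 held 47 injured tdTomato- cells, 1 injured tdTomato+ cell and no uninjured cell, with 29 cells on plate 211 and 19 on plate 215, and 7 of 9 pericyte markers were raised in it. There *Acta2* was at 2226 CPM, *Mylk* at 1007 CPM, *Des* at 696 CPM, *Casq2* at 254 CPM, *Tagln* at 237 CPM and *Myh11* at 51.1 CPM in tdTomato- cells. These 47 cells held 78.3% of the *Des*, 65.96% of the *Mylk*, 59.9% of the *Acta2* and 43.04% of the *Tagln* counts of injured tdTomato- cells. Cluster 4, in which 8 of 8 perivascular fibroblast markers were raised and which is called perivascular fibroblast-like, had *Acta2* at 44.97 CPM in 26 uninjured and 183 CPM in 19 injured tdTomato+ cells, of which 1 cell held 99.2% and 97.8%, with *Myh11* at 4.98 and 0.208 CPM.

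Cluster 3 held both uninjured and injured cells and allowed the genes to be followed inside it for the tdTomato- sort. In 23 uninjured and 14 injured cells *Acta2* was at 377 and 674 CPM, *Tagln* at 45.4 and 87.2 CPM, *Myh11* at 300.8 and 137.4 CPM and *Casq2* at 1340 and 563 CPM. These values have no plate spread of their own here, and 1 cell held 39.7% of the uninjured *Acta2* counts.

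At 3 days the sorts were compared again. *Myh11* was at 3.21 CPM in tdTomato+ and 93 CPM in tdTomato- cells (difference -4.48), *Casq2* at 3.69 and 258 CPM (-5.78), *Mylk* at 85.6 and 659 CPM (-2.93), *Lmod1* at 1.35 and 20.4 CPM (-3.19), *Des* at 97.9 and 384 CPM (-1.96) and *Actg2* at 3.76 and 12.6 CPM (-1.52). All 6 were called lower in tdTomato+ cells. These differences pool the plates, and plate 215 held 5.39% of the tdTomato+ and 52.4% of the tdTomato- counts. On plates 211 and 215 alone *Lmod1* differed by -2.19 and -2.47 and *Des* by -1.77 and -0.95. The pooled values of *Lmod1* and *Des* thus lay outside those of their plates. For *Lmod1* 1 vSMC-like cell held 74.2% of the tdTomato- counts. Without the vSMC-like cells its tdTomato- level was 5.36 CPM, under the minimum, and its plate differences were -2.19 and 0.91. For *Actg2* 1 cell held 35.5% of the tdTomato- counts, and without it the level was 8.35 CPM, also under the minimum. *Cnn1* alone was called higher in tdTomato+ cells, at 12.1 against 4.37 CPM, a difference of 1.29 (0.49 on plate 211 and 3.96 on plate 215). In tdTomato+ cells 1 cell held 33.9% of its counts, and without that cell the level was 8.2 CPM, under the minimum for a call. *Acta2*, at 977 against 1603 CPM, had plate differences of -1.15 and 0.07, in opposite directions. *Tagln*, at 282 against 237 CPM, was higher in tdTomato+ cells on each plate, by 0.47 and 0.86. Its pooled difference of 0.25 lay below those of its plates and was too small for a call. Thus 1 of the 9 tested members was higher and 6 lower, where 4.31% of 10631 genes were higher and 17.9% lower. The median was -1.91 over the 10 genes and -0.32 over all genes tested. The pericyte markers, at 729.9 against 11320 CPM, moved in the same direction, and their part was not tested.

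The company the genes kept within cells was described by the Pearson correlation r of ln(1 + counts per 10000), centred on plate means, over cells of 1 group with 20000 or more counts. These cells share plates and were not thinned, so they differed in depth. In 92 uninjured tdTomato- cells the 5 genes most like *Myh11* among 10757 were *Nrip2* (r = 0.89), *Lmod1* (0.88), *Acta2* (0.88), *Tagln* (0.88) and *Pln* (0.84), so that 4 of the 5 were members. *Mylk* stood at 0.71, while *Des* (0.05) and *Casq2* (-0.11) did not follow. In 100 injured tdTomato+ cells the genes most like *Acta2* were *Tagln* (0.86), the myosin light chain gene *Myl9* (0.80), *Gm48529* (0.79), the tropomyosin gene *Tpm2* (0.78) and *Csrp1* (0.77). *Gm48529* lies antisense within *Tagln* in the GENCODE annotation, and whether the counting used strand was not given in the sources used here, so its reads and those of *Tagln* cannot be told apart. In the injured tdTomato- cells they were *Tpm2* (0.77), *Tagln* (0.77), *Tpm4* (0.65), *Tpm1* (0.64) and *Flna* (0.63). *Myh11* had an r of 0.88 with *Acta2* in uninjured tdTomato- cells, 0.85 in uninjured tdTomato+ cells and 0.29 in each injured sort. In uninjured tdTomato- cells 14 vSMC-like cells held 81.2% of the *Myh11* and 87.7% of the *Acta2* counts. In uninjured tdTomato+ cells 3 held 46.6% and 37.7%. Injured tdTomato- cells included 1 vSMC-like cell and injured tdTomato+ cells none, where 1 cell held 50% of 100 *Myh11* counts. The part of these cells in the values of r was not tested. At full depth *Myh11* was counted in 13.1% of injured tdTomato+ and 43.7% of injured tdTomato- cells.

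Other genes of the contractile apparatus did not move as 1 block with injury. Of 15 filament and dense plaque genes 4 rose and 4 fell in tdTomato+ cells, with a median of 0.13, where 10.8% of all genes tested rose and 34.3% fell. *Csrp1* (1.89), the tropomyosin gene *Tpm1* (1.67, from 451.5 to 1444 CPM), *Pdlim7* (1.64) and the actinin gene *Actn1* (1.27) rose, and *Synpo2* (-2.30), *Pdlim3* (-2.00) and *Myl9* (-1.72) were among those that fell. In tdTomato- cells 1 gene rose, *Pdlim7* (1.13), and 3 fell, among them *Pdlim3* (-3.47) and *Synpo2* (-1.79), where 9.52% of all genes rose and 17% fell. The non-muscle genes *Actg1*, *Actb*, *Tpm4* and *Tagln2* rose in both sorts, 4 of 11 in each with *Myl12b* lower, and *Actg1*, the cytoplasmic gamma-actin gene, went from 411 to 4615 CPM in tdTomato+ and from 419.5 to 1387 CPM in tdTomato- cells. Actin genes are near-identical over much of their coding sequence, so the counting could have split reads among *Acta2*, *Actg2*, *Actg1* and *Actb*.

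Genes for calcium entry, storage and membrane excitability fell in tdTomato+ cells, 9 of the 10 tested of 15, with a median of -2.33 beside -0.59 for all genes. Of all genes tested 34.3% fell in this sort. The calcium pump gene *Atp2a3* fell from 265 to 4.56 CPM and the T-type channel gene *Cacna1h* from 48.8 to 2.57 CPM. In tdTomato- cells 4 of 10 fell, by 1.10 (*Itpr1*) to 1.5 (*Cacna1h*), and *Trpc6* rose by 2.92. There 17% of all genes tested fell and 9.52% rose.

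Of 6 transcription regulators measured, the myocardin gene *Myocd*, a coactivator of serum response factor at smooth muscle genes, fell from 18.1 to 1.25 CPM in tdTomato- cells and did not reach 10 CPM in either tdTomato+ group. *Klf4* fell in both sorts, by 3.41 and 1.16, and *Mrtfb* in tdTomato+ cells by 2.20, while *Srf* itself was at 55.3 and 32.02 CPM in tdTomato+ and 55.6 and 50.7 CPM in tdTomato- cells without a call. All 10 myofibroblast matrix genes rose in tdTomato+ cells and 8 of 10 in tdTomato- cells, with medians of 2.49 and 2.53. Of all genes tested 10.8% and 9.52% rose in these sorts. *Tnc* went from 8.54 to 990.4 CPM and from 0.409 to 579 CPM. The fixed vSMC markers outside the contractile genes fell, 5 of 5 tested in tdTomato+ and 5 of 7 in tdTomato- cells. Of all genes tested 34.3% and 17% fell. *Nrip2*, the gene most like *Myh11* before injury, went from 90.3 to 6.87 CPM and from 232 to 50.6 CPM.

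**Figure D5:**
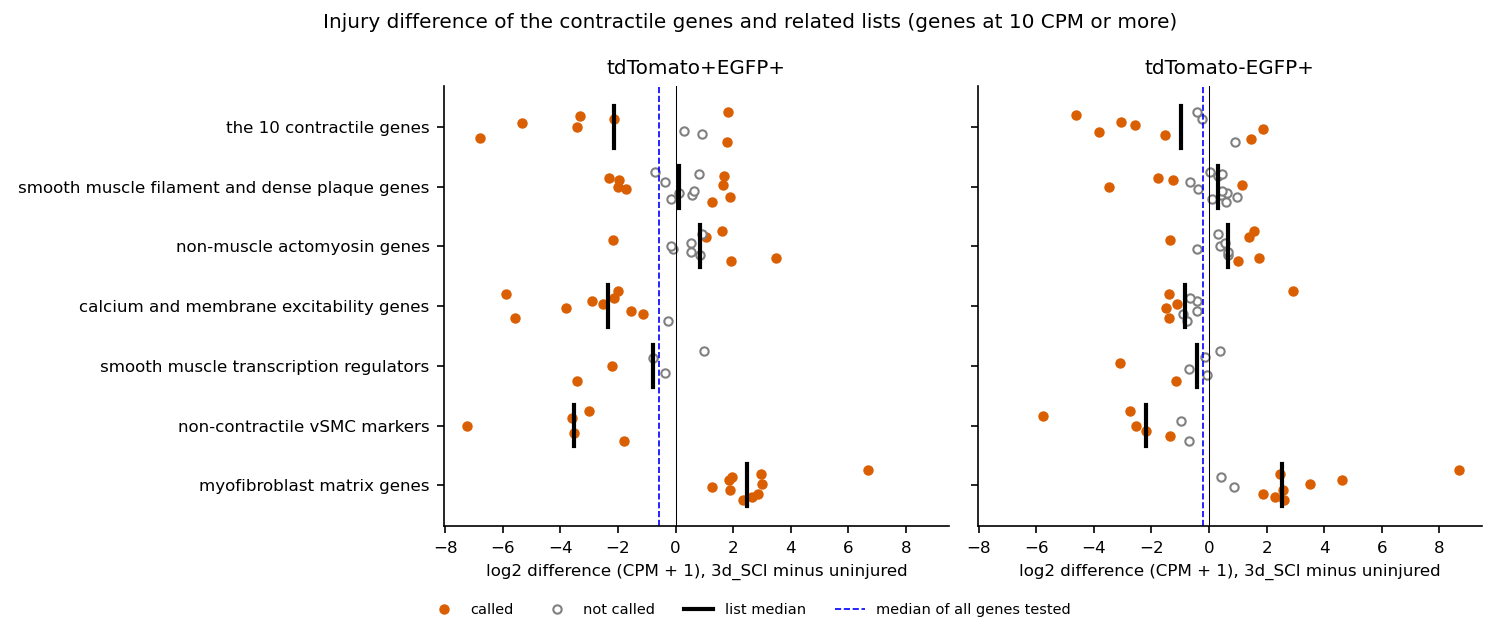
Injury difference (horizontal axis, log2 of CPM + 1, 3d_SCI minus uninjured) of genes at 10 CPM or more in the contractile set and 6 other lists, for each sort. Filled marks are genes called, black bars list medians and the dashed line the median of all genes tested (-0.59 and -0.20). Contractile genes lie on both sides of 0, matrix genes to the right, and calcium and vSMC marker genes mostly to the left, with *Trpc6* in the tdTomato- sort at 2.92.

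Cells of other kinds could carry some of these genes. The 8 striated muscle markers, listed because striated muscle also uses *Des* and *Casq2*, summed to between 4.56 and 16.4 CPM in the 4 groups, against 79.6 to 384 CPM of *Des*. *Casq2* ran from 3.69 to 746 CPM, and its 3.69 CPM in injured tdTomato+ cells lay under their marker sum of 4.56 CPM. The striated marker *Acta1* was raised in cluster 6. A part of striated muscle in these levels was not tested. Endothelial markers, none at 0, summed to 3635 and 3947 CPM in uninjured tdTomato+ and tdTomato- cells and to 345 and 1423 CPM after injury. Cells with *Pecam1* above both a fixed level and *Pdgfrb* had been removed, but cells under that level were kept. The part of endothelial transcripts in the levels of the members was not tested. The 6 immune markers summed to between 7.29 and 43.1 CPM and the 8 astrocyte and oligodendrocyte markers to between 5.59 and 329.5 CPM, and the 6 cycling markers went from 8.33 to 1167 CPM with injury in tdTomato+ and from 8.52 to 625.8 CPM in tdTomato- cells.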

How the data were processed

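Single perivascular cells were sorted from mouse spinal cord, and Smart-seq3 libraries were sequenced by the study. The authors deposited raw counts as whole numbers for each gene in each cell, in a table with 503 columns that match a labelled cell and 1465 columns that match none and were not used. The submitters' processing notes name the mm10 build. The aligner, the counter, its use of strand, and whether counts are reads or molecules were not given in the sources used here.

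Kept cells had 200 or more detected genes, under 20% mitochondrial counts, no glial or immune profile (0 removed) and no endothelial profile (34 removed). This left 468 cells. An endothelial profile was a *Pecam1* value above 1 in ln(1 + counts per 10000) that was also above that of *Pdgfrb*. No doublet caller was run. Groups came from the labels, and each was 1 sample. Counts were summed per group and per plate and scaled to CPM, and differences are log2(CPM + 1). All genes reaching 10 CPM in either group were read by the same rule, a difference of 1 or more with every plate or plate pair in the same direction. No count model was run, since no group has labelled replicates. Scaling factors from edgeR 4.0.16 (TMM) and DESeq2 1.42.0 were alternatives, as were other pseudocounts, minimums and cell filters, each plate left out, and CPM averaged over cells. Clusters came from Seurat 5.3.0 at resolution 0.5 with 67 contractile and related genes held out. Shares of cells used thinning to 20000 counts, and exact binomial intervals at 95% cover counting error only. Scripts ran in Python 3.11.15 and R 4.3.3 and were tested on simulated data.

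The members and lists were chosen with earlier results of these data known. The genes named are the 10 members, the genes called in each list that were furthest from 0, and the 5 genes most like a member. Genes named beyond these were chosen after their values were seen. A few genes and 1 gene list are not reported here.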

Additional observations from a re-analysis of the deposited data

Results flagged for a closer look

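*Tagln* stood out because its injury difference was 1.82 in tdTomato+ cells and -0.43 in tdTomato- cells, with every plate pair of a sort on the same side. Without the 18 vSMC-like cells the values were 2.85 and 3.60, both in the same direction. Of these cells 14 held 95.3% of the *Tagln* counts of uninjured tdTomato- cells, so leaving them out lowers that side by itself. The sort difference of *Tagln*, tdTomato+ minus tdTomato-, was -2.00 in uninjured cord and 0.25 at 3 days, again with the plates of each time on opposite sides. Without the vSMC-like cells the uninjured value was 1.11. *Cnn1* did likewise, with a sort difference of -3.46 in uninjured cord and 1.29 at 3 days, where the uninjured tdTomato+ value rested on 1 cell. At 3 days 1 cell held 33.9% of the tdTomato+ counts of *Cnn1*, and without it the level was 8.2 CPM, under the minimum for a call. None of these differences between sorts or times was tested, since each group is 1 sample.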

How the results depend on the processing

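Injury and plate cannot be told apart, no label names an animal, and rare members such as *Cnn1* and *Pln* rest on few cells after injury. The median difference over the 10 members was -1.96 (uninjured sort), -1.91 (sort at 3 days), -0.93 (injury, tdTomato+) and -0.98 (injury, tdTomato-). TMM factors moved the injury medians to -0.26 and -0.70 and DESeq2 factors to -0.12 and -0.74, as they moved the median of all genes by 0.65 and 0.28, and by 0.79 and 0.24. A pseudocount of 10 gave -1.73 (uninjured sort), -1.07 (sort at 3 days) and -0.54 (injury, tdTomato+), and 3.00 for the split in tdTomato- cells. With CPM averaged over cells the uninjured sort was at -1.84 and injury in tdTomato+ cells at -1.63, and *Acta2* turned to 0.81 and -1.25. Keeping the cells removed for an endothelial profile gave -1.87 for the uninjured sort. An upper limit of 1200 detected genes left 10 and 13 uninjured cells, with a median of 0.0 and *Acta2*, *Tagln* and *Mylk* at 6.29, 0.22 and 5.05.

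Without the vSMC-like cells, an alternative chosen after the data were seen, the medians were -0.54 (uninjured sort), -0.74 (injury, tdTomato+) and 0.17 (injury, tdTomato-), the split in tdTomato- cells was 4.59, and 1 member was called in the uninjured sort. *Acta2*, *Tagln* and *Pln* were then at 0.57, 1.11 and 0.017 in that sort. Leaving out each plate gave medians from -1.90 to -1.79, -2.61 to -1.46, -1.26 to -0.90 and -1.12 to -0.89 in the order above, and splits from 2.55 (without plate 209) to 4.74 in tdTomato+ and 2.96 to 4.01 in tdTomato- cells. Over the settings other than leaving out the vSMC-like cells, of the values of single members 208 moved by less than the plate spread, 71 moved further and 5 changed sign. No paired analysis was possible because the labels give no replicate numbers or animals and the results come from no test. The sort differences quoted come from sums pooled over plates, and only their direction and spread were read within each plate.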
